A study of Homo sapiens with 6 samples.

Results

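The genes described here are C1QBP, whose protein is the target of the peptide PDBAG1, the genes of 3 other proteins that the study took into its peptide pull-down (DHX57, MYBBP1A and TCOF1), and the genes of 3 glycerol 3-phosphate dehydrogenases (GPD1, GPD1L and GPD2). They were chosen by name, because the study names them or because they belong to the enzyme family of GPD1, the protein from which the peptide is derived, and the rule uses no measured value. All 7 have a row among the 17631 genes with values, and 6 of them passed the expression filter that 12582 genes passed. GPD1 did not. SLC25A22, a mitochondrial glutamate carrier whose binding was tested with theirs, is not a member and is given beside them.

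The RNA-seq data came from MDA-MB-231, a mesenchymal-like human cell line of triple-negative breast cancer, with 3 vehicle libraries and 3 libraries of cells given 30 µM PDBAG1, all at 24 h. PDBAG1 is a synthetic peptide in which a cell-penetrating sequence precedes a stretch of GPD1, and the labels name no group that received the cell-penetrating sequence alone. Cells of both groups grew in the same serum-containing medium. The labels name breast cancer tissue as well as the cell line, and do not say whether the libraries of a group came from separate cultures, so p-values measure only the spread between these libraries, which may be technical. All values are TPM, a share of all transcripts that is corrected for transcript length and can be set side by side between genes. VIM and CD44, which mark mesenchymal breast cancer lines, stood at 4174 to 5942 TPM and at 313 to 499 TPM over the 6 libraries, whereas PGR and CDH1, the progesterone receptor and E-cadherin of luminal cells, were below 1 TPM in all 6. Of the other markers on the list of genes low in such lines, ERBB2 stood at 23.6 to 25.4 TPM, EPCAM at 3.92 to 5.78 TPM and ESR1 at 1.96 to 3.38 TPM, and none of these 3 was called. VIM and CD44 were called higher with PDBAG1 (log2 differences 0.46 and 0.59) and AXL lower (-0.26), while ZEB1 was not called. Of 9 genes that mark fat, blood, vessel or connective tissue cells, 5 (ADIPOQ, PLIN1, FABP4, LEP and VWF) were below 1 TPM in every library. The summed level of the 9 was 261 to 274 TPM with vehicle and 322 to 343 TPM with PDBAG1, most of it CD68. Of the 3 that could be tested, CD68 and PECAM1 were called higher, and their part in the results below was not tested.

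C1QBP, also known as p32 or gC1qR, is a trimeric acidic protein of the mitochondrial matrix that is needed for the translation of mitochondrially encoded proteins, and a part of it is found in the nucleus, at the cell surface and in complexes with the splicing factor SRSF1. GPD1 and its paralogue GPD1L are cytosolic enzymes that reduce dihydroxyacetone phosphate to glycerol 3-phosphate with NADH, and GPD2, on the outer face of the inner mitochondrial membrane, oxidises it again and hands the electrons to ubiquinone. Together they form the glycerol phosphate shuttle, which carries reducing equivalents from the cytosol to the respiratory chain. MYBBP1A and TCOF1 (treacle, the protein affected in Treacher Collins syndrome) work in the nucleolus, in the transcription of ribosomal DNA and the processing of ribosomal RNA, and DHX57 is a putative RNA helicase of the DEAH-box family.

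C1QBP mRNA was abundant and fell with PDBAG1. It stood at 523, 512 and 527 TPM in the vehicle libraries and at 428, 405 and 421 TPM in the PDBAG1 libraries. Every PDBAG1 library lay below every vehicle library, and 84.8 TPM separated the nearest libraries of the groups. The mean of 3 libraries was 521 TPM (SD 7.55) with vehicle and 418 TPM (SD 11.8) with PDBAG1. On the log2(TPM + 1) scale the difference was -0.32 with a standard error of 0.04 (95% interval -0.39 to -0.24, limma adjusted p = 1.39e-05), equal to a 1.25-fold lower level, and thus smaller than the 1.5-fold limit that the study set for selecting genes. In terms of rank, C1QBP was the 253rd most abundant of the 12582 genes tested with vehicle and the 342nd with PDBAG1. Its change lay low among all genes tested, of which 4.81% had a lower fold change. The gene was called in each of the 15 settings run, with log2 differences from -0.35 under median-of-ratios scaling to -0.23 with trends in transcript length and GC content removed. These are mRNA values, and C1QBP protein was not measured in these libraries.

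**Figure D1:**
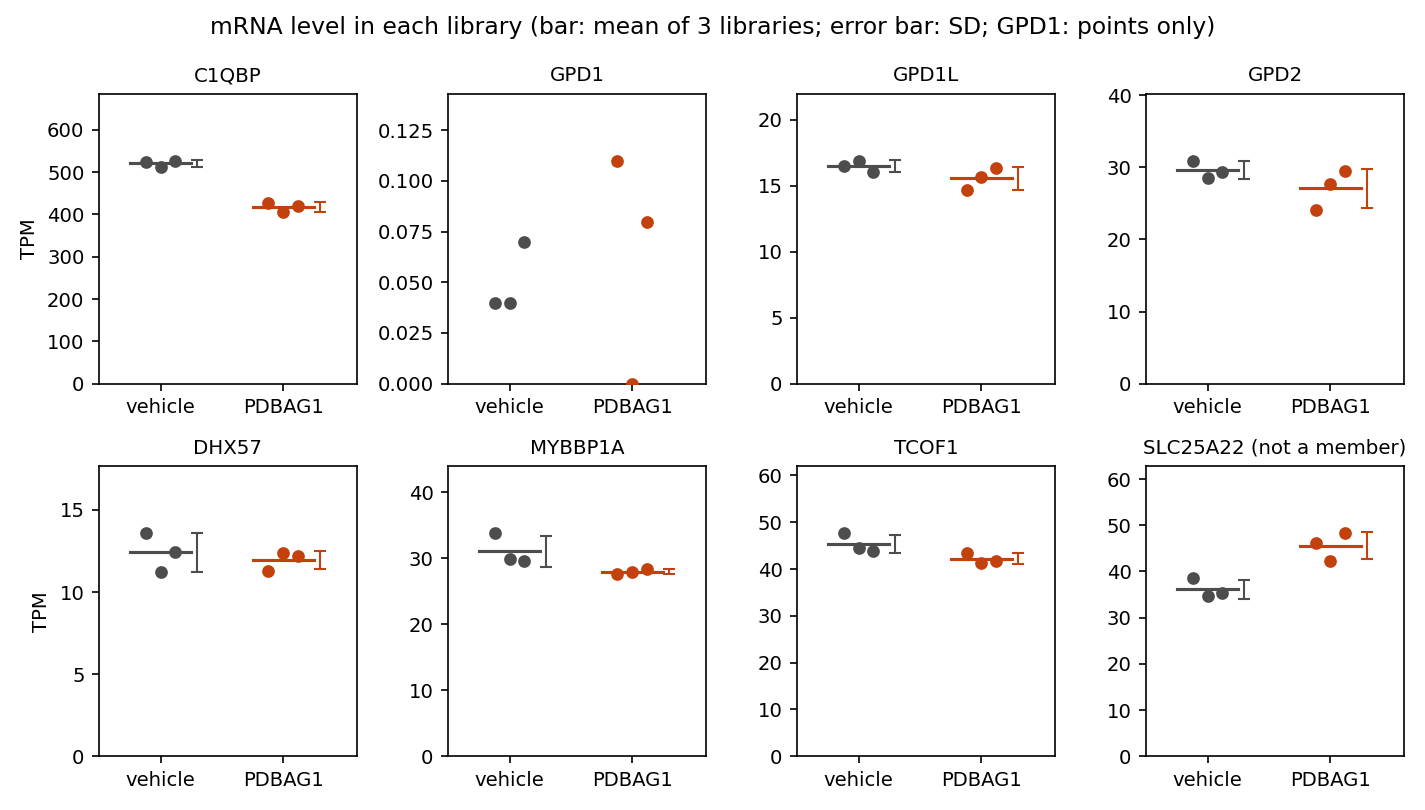
TPM (y axis, from 0, a scale of its own for each gene) of the 7 members and of SLC25A22 in the 3 vehicle and 3 PDBAG1 libraries, with a point for each library, a bar for the mean and an error bar for the SD, which are left out for GPD1. The C1QBP points of the PDBAG1 group sit between 405 and 428 TPM, below all vehicle points at 512 to 527 TPM, and those of SLC25A22 lie above the vehicle points.

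C1QBP (gene ID 708) lies on the minus strand of chromosome 17 at 5432777 to 5448830 (GRCh38, GENCODE v44), and its canonical transcript of 1169 bases begins at 5439155. The last 101 exon bases of that transcript are shared with exons of RPAIN on the opposite strand. Whether the libraries kept strand is not given in the sources used here, and without strand reads from these bases could not be told apart. The gene also overlaps the span of DHX33 on its own strand, but the canonical exons share no base with exons of DHX33. Processed pseudogenes of C1QBP are annotated on chromosomes 21 and 11 and were not analysed here, and how the counting placed reads that match them is not given. The study's own primers for C1QBP mRNA are shown because they mark a coding stretch of 218 bases that shares none with RPAIN. The forward primer reads 5′ to 3′ along the transcript and the reverse primer along the opposite strand.
C1QBP forward primer: tgatggtgaggaggaaccct
C1QBP reverse primer: cgccagtggactgaaagcta
The forward primer matched exon 3 (chr17:5434902-5434921) and the reverse primer exon 5 (chr17:5433346-5433365), each at a single place in the transcript. Their qPCR values are not among the data used here. The study describes a qPCR measurement of C1QBP mRNA after PDBAG1 and states that the transcript was not affected. The lower C1QBP mRNA level in the PDBAG1 libraries differs from that statement, and the reason for the difference was not tested.

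Most of the genes beside C1QBP were lower as well. RPAIN, which encodes a carrier that brings replication protein A into the nucleus, fell from 56.6, 56.3 and 57.8 TPM to 47.8, 49.0 and 49.6 TPM (log2 difference -0.22, limma adjusted p = 0.0027), a call that was lost with length and GC trends removed (-0.08, adjusted p = 0.188). NUP88, a nuclear pore protein, fell by 0.28 on the log2 scale (adjusted p = 0.00026), and DHX33, a nucleolar DEAH-box helicase, by 0.33 (adjusted p = 0.00113). Upstream of DHX33, DERL2, of endoplasmic reticulum protein degradation, had a log2 difference of -0.05 (adjusted p = 0.467), and MIS12, of the kinetochore, one of -0.17 (adjusted p = 0.0837). Thus 3 of the 5 neighbours were called lower and none higher, where 15.9% of all genes tested were called lower. No relation between the genes was tested.

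**Figure D2:**
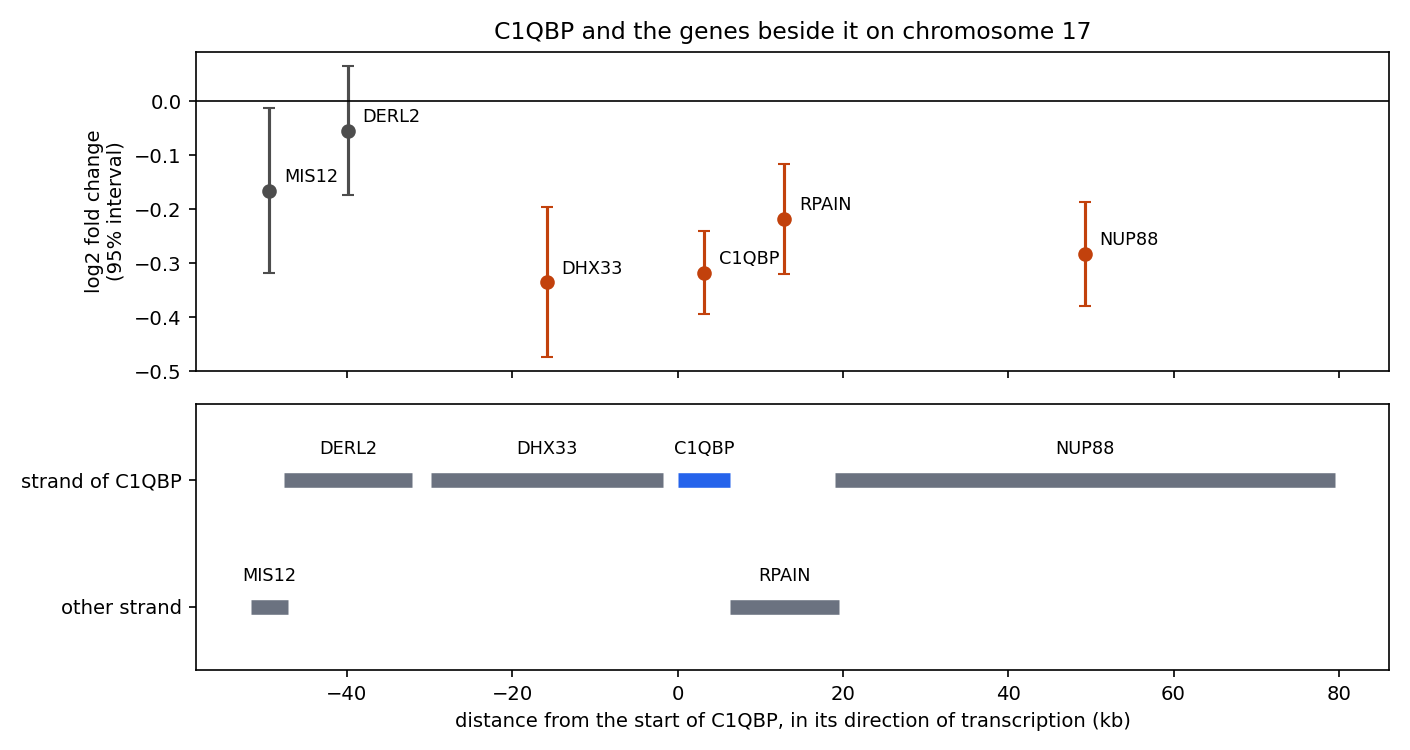
Upper panel: log2 fold change of TPM + 1 (y axis, with 95% interval) for C1QBP and its 5 neighbours at the middle of each gene. Lower panel: the genes as bars on the strand of C1QBP or the other strand, by distance in kb (x axis) from the start of its canonical transcript. C1QBP, RPAIN, NUP88 and DHX33 (orange) passed an adjusted p of 0.05, with differences of -0.22 to -0.33, and DERL2 and MIS12 (grey) did not.

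The 5 tested genes whose course over the 6 libraries was nearest to that of C1QBP were MRPS7, a protein of the small mitochondrial ribosomal subunit, TIMM22, the pore of the carrier translocase in the inner mitochondrial membrane, KRT7, a keratin, ARPC5L, a subunit of the Arp2/3 actin complex, and CCDC137. Likeness was the root-mean-square difference of the centred log2(TPM + 1) values, which ran from 0.0083 for MRPS7 to 0.018 for CCDC137. MRPS7 stood at 154, 153 and 157 TPM with vehicle and at 128, 120 and 126 TPM with PDBAG1. The 5 genes were picked for this likeness, so that their differences, -0.34 to -0.31, are a description only.

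Known partners of C1QBP were called in both directions. Of 16 genes on a list of its ligands, binding partners and kinases, C1QA, C1QB and C1QC, which encode the chains of C1q, were not analysed here, and 4 were under the filter, KNG1, VTN and PRKD1 among them. Of the 9 tested, 2 were called higher and 1 lower, against 21.7% and 15.9% of all genes, and the median log2 difference was 0.13 against 0.03 for all genes tested. SRSF1, the splicing factor with which the protein was first copurified, fell from 142, 128 and 134 TPM to 108, 107 and 122 TPM (log2 difference -0.26, limma adjusted p = 0.0027). ULK1, the kinase that starts autophagy, rose from 9.89, 8.79 and 9.0 TPM to 15.3, 17.1 and 16.4 TPM (0.75, adjusted p = 5.46e-06), and PRKCD, a protein kinase C, rose by 0.44 (adjusted p = 2.62e-05). The groups did not overlap in these 3 genes, which were named for their calls, nor did they in 47.4% of all genes tested.

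Among 17 factors of mitochondrial translation, the process in which C1QBP takes part, 6 were called lower and 1 higher. Of the 17, 13 had a difference under 0, as had 5550 of the 12582 genes tested. The median of the 17 was -0.15, against 0.03 for all genes tested, of which 15.9% were called lower and 21.7% higher. MTERF4, which directs the assembly of the mitochondrial ribosome, fell from 21.7, 23.0 and 20.5 TPM to 17.97, 15.8 and 14.8 TPM (log2 difference -0.40, limma adjusted p = 0.0011). C12orf65, a rescue factor for stalled mitochondrial ribosomes, fell by 0.30 (adjusted p = 0.000266). MTIF3, an initiation factor, was the gene called higher (0.17, adjusted p = 0.0127), and its call was lost without vehicle replicate 3 (adjusted p = 0.0586) and without PDBAG1 replicate 2 (adjusted p = 0.0792). The count of factors called lower was 11 under median-of-ratios scaling and 10 under quantile normalization, where the lower calls among all genes went from 2000 to 2620 and 2742.

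SLC25A22, the other mitochondrial protein that was tested with C1QBP in the pull-down, went the opposite way. It rose from 38.5, 34.6 and 35.4 TPM to 46.2, 42.4 and 48.3 TPM, so that the lowest PDBAG1 library was 3.85 TPM above the highest vehicle library. The log2 difference was 0.33 (standard error 0.06, limma adjusted p = 0.00109), and the gene was called in all 15 settings. Its difference was smallest, at 0.24, with length and GC trends removed. The ratio of C1QBP to SLC25A22 within a library was 13.6, 14.8 and 14.9 with vehicle and 9.25, 9.55 and 8.71 with PDBAG1. A common scaling of the library cancels in this ratio, whereas length and GC trends do not. The groups did not overlap. The ratio was chosen after its values were seen and is a description with no test.

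Of the proteins in the pull-down other than C1QBP, none that is a member had an mRNA that was called. Among the proteins whose binding was tested there, the study reports binding to PDBAG1 for DHX57 and C1QBP. Over all members, 1 of the 6 tested, C1QBP, was called lower and none higher, where 37.6% of all genes were called in either direction. None of the 6 passed the 1.5-fold limit as well, which 3.34% of all genes did. All 6 had a log2 difference under 0, as 5550 of the 12582 genes had. The groups did not overlap for 3 of the 6, C1QBP, MYBBP1A and TCOF1, each lower with PDBAG1, whereas this held for 20.2% of all genes in that direction, for 27.2% in the other and for 47.4% in either.

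DHX57, the helicase, stood at 13.6, 11.2 and 12.5 TPM with vehicle and at 11.3, 12.4 and 12.2 TPM with PDBAG1. The PDBAG1 libraries lay within the range of the vehicle libraries. The log2 difference was -0.05 (95% interval -0.22 to 0.13, limma adjusted p = 0.676), and without vehicle replicate 1 it was 0.01. The interval leaves room for a value of TPM + 1, not of TPM itself, from 14.3% lower to 9.20% higher. Of 15 other DEAH-box helicases tested, 1 was called higher and 3 lower, with a median of -0.01. Of all genes tested, 21.7% were called higher and 15.9% lower, so these counts do not set the family apart. DHX32 rose by 0.33 (adjusted p = 0.000421), whereas DHX33 fell by 0.33, and DHX15, a helicase that takes spliceosomes apart, fell by 0.16 (adjusted p = 0.0166), a call that was lost without vehicle replicate 1 (adjusted p = 0.0583), without PDBAG1 replicate 2 (adjusted p = 0.0699), without the variance trend (adjusted p = 0.0698) and with length and GC trends removed (adjusted p = 0.085). DHX57 (chromosome 2, 38797729 to 38875934, minus strand) had the lowest level of the 6 members tested.

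MYBBP1A, a nucleolar protein that binds MYB and represses RNA polymerase I transcription, stood at 33.8, 29.9 and 29.6 TPM with vehicle and at 27.7, 27.9 and 28.4 TPM with PDBAG1. All 3 PDBAG1 libraries lay below the vehicle libraries, by at least 1.16 TPM, and vehicle replicate 1 stood above the other two of its group. The log2 difference was -0.14 (95% interval -0.28 to -0.01), which did not pass after adjustment (limma adjusted p = 0.0867, unadjusted p = 0.0377). It passed under median-of-ratios scaling (-0.18, adjusted p = 0.0132), under quantile normalization (-0.18, adjusted p = 0.0132) and with length and GC trends removed (-0.26, adjusted p = 0.00271). The gene lies on the minus strand of chromosome 17 at 4538897 to 4555386 and overlaps SPNS2 on the other strand by 139 bases.

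TCOF1, which encodes treacle, stood at 47.6, 44.5 and 43.9 TPM with vehicle and at 43.5, 41.3 and 41.8 TPM with PDBAG1. The groups did not overlap, though only 0.38 TPM lay between their nearest libraries. The log2 difference was -0.10 (95% interval -0.22 to 0.01, limma adjusted p = 0.155). It passed under the same 3 settings as MYBBP1A, with -0.13 and adjusted p = 0.0418 under median-of-ratios scaling, -0.13 and adjusted p = 0.0419 under quantile normalization, and -0.22 and adjusted p = 0.00264 with length and GC trends removed. Whether TCOF1 and MYBBP1A counted as changed therefore depended on how the TPM were scaled. TCOF1 lies on the plus strand of chromosome 5 at 150357629 to 150400308.

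**Figure D3:**
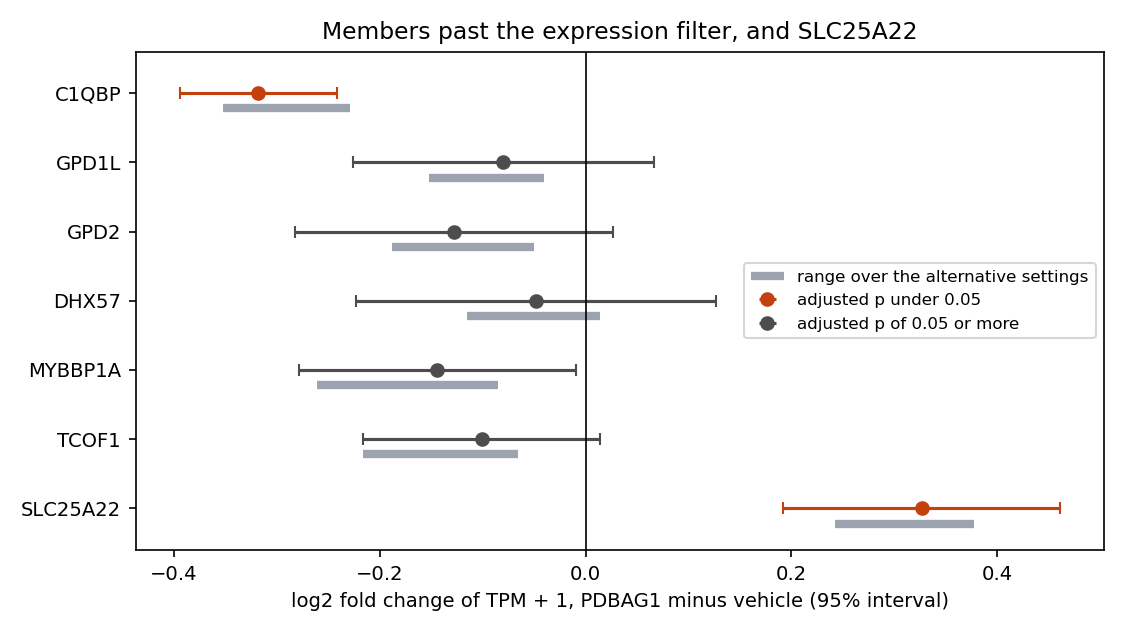
Log2 fold change of TPM + 1 (x axis, PDBAG1 minus vehicle) for the 6 members tested and SLC25A22, as points with 95% intervals, over 3 libraries per group. Grey bars give the range over the 15 settings. C1QBP at -0.32 and SLC25A22 at 0.33 (orange) passed an adjusted p of 0.05, and the other 5 (dark grey) lay between -0.14 and -0.05 and did not.

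Of 22 genes of ribosomal RNA processing, the nucleolar work in which MYBBP1A and TCOF1 take part, 19 were called lower with PDBAG1 and 3 (NOP14, PES1 and RRP12, named after their values were seen) were not called. All 22 had a difference under 0, as 5550 of the 12582 genes tested had. The median of the list was -0.29, against 0.03 for all genes tested, of which 15.9% were called lower. This list, like the other gene lists, was written with earlier results of these data known, so its counts are a description only. NOP16, an assembly factor of the large subunit, fell from 192, 180 and 194 TPM to 121, 115 and 126 TPM (log2 difference -0.64, limma adjusted p = 2.5e-07). DKC1, the pseudouridine synthase dyskerin, fell from 89.2, 84.6 and 84.0 TPM to 58.2, 57.6 and 61.8 TPM (-0.53, adjusted p = 2.2e-06). In both genes, picked as the largest falls of the list, every PDBAG1 library lay below every vehicle library, as in 20.2% of all genes tested. The number called lower was 18 or 19 when each library was left out in turn. In the main fit, the differences of TCOF1 (-0.10) and MYBBP1A (-0.14) were nearer to 0 than the median of this list. With length and GC trends removed they were -0.22 and -0.26, and no list median is given for that setting.

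Within a library, TCOF1 can be set against NOLC1, a related nucleolar phosphoprotein that fell by 0.41 on the log2 scale (limma adjusted p = 6.97e-05). The ratio of TCOF1 to NOLC1 was 0.276, 0.280 and 0.274 with vehicle and 0.362, 0.360 and 0.312 with PDBAG1. It was higher in each PDBAG1 library, and as NOLC1 was chosen after its values were seen, this is a description with no test.

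RNA polymerase I and its factors, on which treacle and MYBBP1A act, comprised 21 genes, all tested. Of these 8 were called lower and none higher, where 15.9% and 21.7% of all genes were, and the median was -0.14. POLR1E, a subunit of the enzyme, fell from 77.6, 77.4 and 78.0 TPM to 53.2, 53.9 and 56.1 TPM (log2 difference -0.51, limma adjusted p = 1.89e-06), and POLR1G, another subunit, fell by 0.45 (adjusted p = 0.000665). With median-of-ratios scaling 13 of the 21 were called lower, as were 2620 in place of 2000 of all genes tested. Some of these subunits also belong to RNA polymerases II and III.

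Partners of MYBBP1A moved both ways. Of 12 genes, 2 were called higher and 4 lower, where 21.7% and 15.9% of all genes tested were, and the median was -0.04. The count called lower ran from 3, with 1 TPM required in every library, to 6 under median-of-ratios scaling, among other settings. That filter left out MYB, which was called lower in each of the 14 settings that held it. MYB, the transcription factor after which MYBBP1A is named, was low and fell from 2.72, 2.29 and 2.14 TPM to 1.36, 1.35 and 0.99 TPM (log2 difference -0.60, limma adjusted p = 0.00146), and at such low levels the scale understates the change. DDX21, a nucleolar helicase that is also on the list of ribosomal RNA processing, fell by 0.34 (adjusted p = 0.000302). RELA, the NF-kB subunit that MYBBP1A represses, rose by 0.27 (adjusted p = 0.000351). MYO1C, a nuclear myosin, was also called higher (0.15, adjusted p = 0.00954), but not with length and GC trends removed (0.04, adjusted p = 0.433) or without the variance trend (adjusted p = 0.0503).

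GPD1, the protein from which the peptide is derived, had next to no mRNA in these cells. Its values were 0.04, 0.04 and 0.07 TPM with vehicle and 0.11, 0.00 and 0.08 TPM with PDBAG1, where the gene is listed at 0 in PDBAG1 replicate 2. The libraries of both groups lay below 0.2 TPM and overlapped. At this level no fold change was formed and no test was run, and TPM gives no limit on what a value of 0 allows. GPD1 (chromosome 12, 50103982 to 50111313, plus strand) is known for its expression in fat, liver and muscle, and the fat cell markers ADIPOQ, PLIN1, FABP4 and LEP were also below 1 TPM in every library.

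GPD1L supplied nearly all of the measured cytosolic glycerol 3-phosphate dehydrogenase mRNA. It stood at 16.5, 16.9 and 16.0 TPM with vehicle and at 14.7, 15.7 and 16.3 TPM with PDBAG1. The groups overlapped, since PDBAG1 replicate 3 lay within the vehicle range. The log2 difference was -0.08 (95% interval -0.23 to 0.07, limma adjusted p = 0.383), and it passed under quantile normalization only (-0.15, adjusted p = 0.0395). The gene lies on the plus strand of chromosome 3 at 32105689 to 32168709.

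GPD2, the mitochondrial enzyme, stood at 30.9, 28.5 and 29.4 TPM with vehicle and at 24.1, 27.7 and 29.4 TPM with PDBAG1. PDBAG1 replicate 1 was the lowest of the 6 libraries and PDBAG1 replicate 3 lay among the vehicle libraries, so that the groups overlapped. The log2 difference was -0.13 (95% interval -0.28 to 0.03, limma adjusted p = 0.182), and it was -0.05 when PDBAG1 replicate 1 was left out. It passed under median-of-ratios scaling (-0.16, adjusted p = 0.0424) and under quantile normalization (-0.16, adjusted p = 0.0416). The gene lies on the plus strand of chromosome 2 at 156435290 to 156613735.

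The balance between the mitochondrial and the cytosolic enzymes of the shuttle was compared within libraries. The ratio of GPD2 to the sum of GPD1 and GPD1L was 1.87, 1.68 and 1.83 with vehicle and 1.63, 1.77 and 1.79 with PDBAG1. On the log2 scale its means were 0.84 ± 0.08 and 0.79 ± 0.07 (SD, n = 3 each, exact two-sided permutation p = 0.5), and the groups overlapped. The smallest p that 3 libraries against 3 allow is 0.1, so that this test could not have passed and shows no stability. The mitochondrial enzyme was thus above the cytosolic ones in each library.

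Around the shuttle, genes that make or use its substrates were called in both directions. Of 17 genes of glycerol 3-phosphate metabolism, 13 were tested, 5 were called higher and 1 lower, and the median was -0.04. These are 38.5% and 7.69% of the genes tested in the list, against 21.7% and 15.9% of all genes tested. ALDOC, an aldolase that releases dihydroxyacetone phosphate, rose from 18.97, 21.1 and 18.4 TPM to 56.7, 55.0 and 47.1 TPM (log2 difference 1.39, limma adjusted p = 1.11e-08). ALDOA, the main aldolase of these cells, rose by 0.41 (adjusted p = 4.86e-07). PGP, a phosphatase that can act on glycerol 3-phosphate, fell from 36.3, 36.0 and 36.1 TPM to 30.4, 29.4 and 28.2 TPM (-0.29, adjusted p = 0.000916). The glycerol channels AQP7, AQP9 and AQP10 had mean levels under 1 TPM in both groups.

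The malate-aspartate shuttle, the other route by which cytosolic NADH reaches mitochondria, had 4 of its 7 genes called lower and none higher, where 15.9% and 21.7% of all genes were, with a median of -0.12. SLC25A11, the malate carrier, fell by 0.23 on the log2 scale (limma adjusted p = 0.00178). SLC25A12, an aspartate-glutamate carrier, fell by 0.22 (adjusted p = 0.0171), but did not pass without vehicle replicate 1 (adjusted p = 0.0586), vehicle replicate 3 (adjusted p = 0.065) or PDBAG1 replicate 2 (adjusted p = 0.0514). The count called lower was 2 without vehicle replicate 1 and also without PDBAG1 replicate 2. It was 3 without vehicle replicate 2, vehicle replicate 3 or PDBAG1 replicate 1. The same count of 3 was found without the variance trend, with a replicate block and with length and GC trends removed.

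Like GPD2, a small group of enzymes passes electrons straight to ubiquinone. Of 9 such genes 7 were tested, and PRODH and CHDH were under the filter. Of the 7, 1 was called higher and 2 lower, where 21.7% and 15.9% of all genes tested were, with a median of -0.07. SQOR, which oxidises sulfide, rose from 97.2, 91.4 and 93.0 TPM to 124, 128 and 129 TPM (log2 difference 0.43, limma adjusted p = 5.34e-06). SDHD and SDHB, of succinate dehydrogenase, were called lower (-0.17, adjusted p = 0.00158, and -0.14, adjusted p = 0.0114), and neither was called with length and GC trends removed (-0.04, adjusted p = 0.389, and -0.01, adjusted p = 0.887). SDHB was not called without the variance trend (adjusted p = 0.0636) or without vehicle replicate 2 (adjusted p = 0.0567) either.

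**Figure D4:**
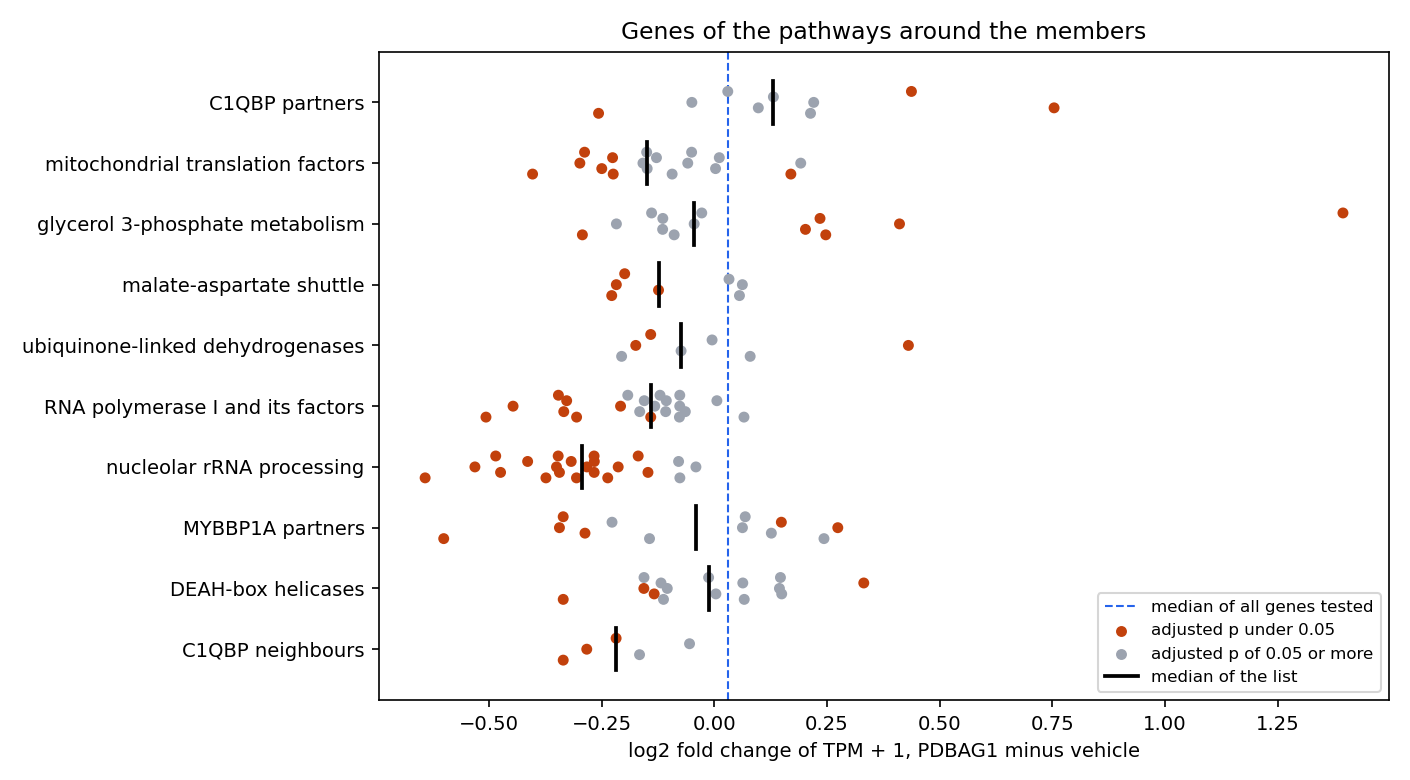
Log2 fold change of TPM + 1 (x axis, PDBAG1 minus vehicle) of each tested gene in 10 lists of genes around the members (y axis), orange for an adjusted p under 0.05 and grey otherwise. A black bar marks the median of a list and the dashed line the median of all genes tested, 0.03. The list of nucleolar rRNA processing lies furthest to the left, with a median of -0.29 and no gene above 0.

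By level, the members had the same order in both groups, which was C1QBP, TCOF1, MYBBP1A, GPD2, GPD1L, DHX57 and GPD1. C1QBP was 11.5 times the next member, TCOF1, with vehicle and 9.90 times with PDBAG1, as ratios of mean TPM. MYBBP1A and GPD2 were the neighbours in this order whose libraries overlapped in both groups, at 29.6 to 33.8 against 28.5 to 30.9 TPM with vehicle, and they did not differ beyond their spread. No other pair of neighbours overlapped.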

How the data were processed

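RNA of 3 vehicle and 3 PDBAG1 samples was sequenced as mRNA libraries, on the BGISEQ-500 platform according to the methods, while the labels speak of Illumina protocols. The submitters' processing notes list HISAT2 2.0.4, Bowtie2 2.2.5, RSEM 1.2.12 and GRCh38.p12, whereas the methods describe HISAT2 on another patch of GRCh38 and FPKM. The authors deposited TPM per gene for each library, rounded to 2 decimals and summing to about 1000000. Since TPM keeps no depth, depth and counting error are unknown and precision rests on 3 libraries a group. Annotation release and strandedness are not given in the sources used here.

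A gene was tested if 3 or more libraries reached 1 TPM. Values were taken as log2(TPM + 1) and fitted with limma 3.58.1 in R 4.3.3 (lmFit, eBayes with a variance trend, two-sided, Benjamini-Hochberg over all 12582 genes, called at an adjusted p under 0.05 with no fold limit), a scale that understates changes of low genes. Each library had 12392 to 12611 genes at 1 TPM or more. Log2 differences between libraries had an SD of 0.14 to 0.18 in a group and 0.28 to 0.30 between groups, so no library was a copy or stood apart. Of all calls, 57.8% were higher with PDBAG1, and 46.7% under quantile normalization. The ratio of GPD2 to the cytosolic enzymes was compared by exact permutation, and the fit was tested on simulated data. Groups came from the sample titles. The gene lists are counted and not tested as sets, while the members past the filter were tested as single genes in the fit. Both were chosen with earlier results of these data known, though the rule for the members uses no measured value. Named genes are the members, SLC25A22, up to 2 of the largest called rises and of the largest called falls in each list, list genes under 1 TPM (some are not reported here), the neighbours of C1QBP, the 5 genes nearest to it in course, and NOLC1, picked after its values were seen. Positions and transcripts are from GENCODE v44, matched by Ensembl identifier for 17212 of 17631 genes. Alternatives were another pseudocount, filters, scalings, no variance trend, a replicate block, leaving out each library, the study's 1.5-fold limit and, added after the values were seen, removal of length and GC trends (12433 genes).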

Additional observations from a re-analysis of the deposited data

How the results depend on the processing

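The calls of C1QBP and SLC25A22 held in every setting run except the study's 1.5-fold limit, which neither reached. Of the members not called, 9 values passed the threshold under another setting: median-of-ratios scaling (GPD2 -0.16, MYBBP1A -0.18, TCOF1 -0.13), quantile normalization (GPD1L -0.15, GPD2 -0.16, MYBBP1A -0.18, TCOF1 -0.13) and removal of length and GC trends, added after the values were seen (MYBBP1A -0.26, TCOF1 -0.22). The cause was not tested. Leaving out each library in turn, log2 differences ran from -0.34 to -0.30 for C1QBP, -0.11 to -0.04 for GPD1L, -0.19 to -0.05 for GPD2, -0.11 to 0.014 for DHX57 (the change of sign came without vehicle replicate 1), -0.18 to -0.08 for MYBBP1A, -0.12 to -0.07 for TCOF1 and 0.29 to 0.38 for SLC25A22. Between 3520 and 4682 genes were called then, against 4736 with all libraries. With that limit 420 genes were called, 360 higher and 60 lower, and no member was among them.

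List counts that moved by over 1.5 times were small. Called lower were, for glycerol 3-phosphate metabolism (1), 2 with a pseudocount of 0.1, with the stricter filter (1 TPM in each of the 6 libraries) or without the variance trend, 3 under median-of-ratios scaling or with length and GC trends removed, and 4 under quantile normalization. For mitochondrial translation factors (6) it was 11 under median-of-ratios scaling and 10 under quantile normalization, for RNA polymerase I (8) 13 under median-of-ratios scaling, and for DEAH-box helicases (3) 5 under either scaling and 1 without the variance trend. For ubiquinone-linked dehydrogenases (2) it was 1 without the variance trend or with length and GC trends removed. Called higher were 2 mitochondrial translation factors (1) and 1 MYBBP1A partner (2) under those 2 settings each, and, with length and GC trends removed, 2 DEAH-box helicases (1), 1 gene of the malate-aspartate shuttle (0) and 1 of RNA polymerase I (0). Without 1 library, DEAH-box helicases called lower ran from 1 (without vehicle replicate 1 or PDBAG1 replicate 2) to 5 (without PDBAG1 replicate 3) and called higher from 1 to 4 (without PDBAG1 replicate 1), malate-aspartate genes called lower from 2 to 4, glycerol 3-phosphate genes called lower from 1 to 2 (without vehicle replicate 2), and mitochondrial translation factors called higher from 0 (without vehicle replicate 3 or PDBAG1 replicate 2) to 1. Of all 441 comparisons of a value with its main value, 398 kept their side of the threshold or stayed within these limits.

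The replicate numbers were not taken as pairs: deviations of same-numbered libraries correlated at -0.207, 0.0118 and -0.0785, and 1 of 6 libraries correlated best with its own number, a hint from the data and not the design. A replicate block on the number gave 3951 called genes in place of 4736, and the calls of the members did not change (C1QBP adjusted p = 2.53e-05). Depth is unknown, so a missed call says nothing on sampling error.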
